A study of Mus musculus with 2 samples.

Results

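The smooth muscle contraction and calcium handling genes are 35 genes named by symbol in a list, of 32285 genes counted. All 35 were found among the gene names. They were followed through droplet barcodes of mouse aorta that differ in their content of the smooth muscle genes Acta2, Tagln and Myh11. These 3 members define the bins below, so their own levels are given as a description and the counts of members refer to the other 32.

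The study profiled single aortic cells of 20-week-old ApoE-/- mice, which lack apolipoprotein E and are prone to atherosclerosis. One sample is labelled MSC_ITGB3 and the other HFD, and the series text describes HFD-fed mice with or without MSC_ITGB3, an agent that the labels do not explain further. The genotype and age were shared by both, and the labels do not say how many animals gave each sample. The counts came as 2 libraries, told apart by the ending of the barcode, and no label ties a library to a sample. Library 1 and library 2 were therefore not assigned to MSC_ITGB3 or HFD, and nothing below compares the treatments.

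Smooth muscle cells shorten when calcium and calmodulin switch on myosin light chain kinase, which phosphorylates the regulatory light chain so that myosin pulls on actin, while myosin phosphatase reverses that step. Calcium is released from the sarcoplasmic reticulum by IP3 and ryanodine receptors and pumped back by SERCA, which phospholamban restrains. Myocardin and serum response factor together switch on many of the contractile genes through a DNA element called the CArG box. In atherosclerosis the muscle cells of the wall are known to lose contractile genes and to take on matrix genes such as Lum.

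Each barcode with at least 3000 unique molecular identifiers (UMIs, 1 per captured transcript) and at most 20% mitochondrial UMIs was kept, which left 6332 and 6540 barcodes in library 1 and library 2. Paired values are for library 1 and then library 2. The kept barcodes held 78646363 and 61693518 UMIs, or 71.3% and 49.6% of each library, with median depths of 8746 and 6031 UMIs. Barcodes were binned by the summed Acta2, Tagln and Myh11 UMIs per 10000 of their own UMIs, called the smooth muscle sum, at under 20, 20 to under 100, 100 to under 200 and 200 or more. They were also divided at 20 Dcn plus Lum UMIs per 10000, Dcn and Lum being matrix proteoglycan genes of fibroblasts. With Dcn+Lum under 20, the bins held 1450, 183, 132 and 907 barcodes in library 1 and 573, 85, 128 and 1330 in library 2, from the lowest bin to the highest. With Dcn+Lum of 20 or more they held 2068, 989, 337 and 266 barcodes, and 1817, 1369, 782 and 456. Of the barcodes from 20 to under 200, 80.8% and 91% had Dcn+Lum of 20 or more, against 22.7% and 25.5% of those at 200 or more.

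UMIs were summed per gene within a bin and given as CPM, the UMIs of a gene per 1000000 UMIs of that bin. Bracketed ranges are exact 95% intervals that cover counting error only, and no p-value is given because each library stands alone. The bin of 200 or more with Dcn+Lum under 20 is called the muscle bin. Its barcodes held all 10 markers of contractile smooth muscle, but so did every other bin, so their presence does not mark it. All of the 10 except Itga8 are members of the list. Itga8, an integrin among those markers and not a member, stood at 1302 and 1449 CPM, against 6.48 and 6.15 CPM in barcodes under 20. The 5 endothelial markers summed to 73.6 and 85 CPM in the muscle bin, against 3784 and 2038 CPM in barcodes under 20, and the 6 leukocyte markers to 264.9 and 108 CPM, against 9288 and 11560 CPM. Barcodes under 20 thus held far more of the markers of other cells, and each marker of both lists was above 0 in both bins. The 8 markers of cardiac and skeletal muscle summed to 116 and 30.1 CPM in the muscle bin, with the atrial gene Nppa at 0 in both libraries. Most of that sum was 1 marker, Tnnt2, at 93 and 19.6 CPM. Barcodes of 10 to 100 UMIs, taken as free RNA, held 8862 and 12007 CPM of the 3 defining genes together. There were 17 barcode sequences present in both libraries, 1 of them in the muscle bin of both.

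Promoter sequences close to the start site were searched for the CArG box, the element bound by serum response factor. Boxes farther from the start site were not searched for. The box was searched as a pair of C, then 6 letters that are each A or T, then a pair of G, a pattern that reads the same on both strands. The windows ran from 250 bases before to 50 bases after the start site in RefSeq on GRCm38.p6, and 28 of the 35 members had one. Myh11, Actg2, Tagln, Atp2a2, Itpr1, Myocd and Dtna had none in the table. Myl9, Myl6, Vcl, Srf and Dmd held the box, which is 5 of 28 members (17.9%), against 488 of 27025 gene symbols (1.81%). The stretch around each box is given 5′ to 3′ with the box in capitals, and Acta2 is added because it defines the bins, with its 2 sites that are 1 letter off the pattern.
Myl9 (chr2:156775273-156775342, plus strand): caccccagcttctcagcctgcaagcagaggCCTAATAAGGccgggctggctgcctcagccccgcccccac
Myl6 (chr10:128493020-128493089, minus strand): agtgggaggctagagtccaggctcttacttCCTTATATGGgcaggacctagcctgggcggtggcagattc
Vcl (chr14:20929148-20929210, plus strand): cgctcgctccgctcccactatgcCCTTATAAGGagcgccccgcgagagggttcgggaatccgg
Srf (chr17:46556185-46556274, minus strand): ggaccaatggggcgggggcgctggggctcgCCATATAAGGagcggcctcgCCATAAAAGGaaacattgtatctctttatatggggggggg
Dmd (chrX:82948742-82948811, plus strand): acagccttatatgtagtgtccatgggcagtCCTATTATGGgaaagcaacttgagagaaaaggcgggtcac
Acta2, first site (chr19:34255438-34255467, minus strand): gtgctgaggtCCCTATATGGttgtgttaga
Acta2, second site (chr19:34255388-34255417, minus strand): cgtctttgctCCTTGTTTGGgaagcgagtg
The boxes began 161, 50 and 227 bases before the start site in Myl9, Myl6 and Vcl, and 98 bases before it in Dmd. The Myl6 stretch lies inside the annotated gene and overlaps an exon of other Myl6 transcripts in GENCODE vM21. Srf, which codes for the factor that binds this element, held 2 boxes, 82 and 62 bases before its start. The Acta2 sites began 84 and 34 bases before the RefSeq start and lie in an exon annotated as untranslated in a longer Acta2 transcript of GENCODE vM21. Counting sites 1 letter off as well, 11 of 28 members (39.3%) had at least 1, against 6419 of 27025 symbols (23.8%). A match is a description of letters in these windows and does not show binding.

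Across the bins the contractile filament genes stood far apart between muscle barcodes and low barcodes. Acta2, smooth muscle alpha-actin (chromosome 19, 34241090 to 34255590 of GRCm38, the build of all gene positions here), had 21735 and 23016 CPM in the muscle bin, against 137 and 170.1 CPM in barcodes under 20. Myh11, the smooth muscle myosin heavy chain (chromosome 16, 14194535 to 14291372), had 3685 and 3434 CPM against 9.25 and 16.5 CPM. Both helped to define the bins, so their levels were also taken in bins made from the other 2 defining genes. Myh11 then stood at 3713 and 3455 CPM at 200 or more, against 13.3 and 21.7 CPM under 20, and Acta2 at 26725 and 28044 CPM against 216 and 293.1 CPM. The ordering of these genes over the bins is thus also there when each is left out of its own bin.

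**Figure D1:**
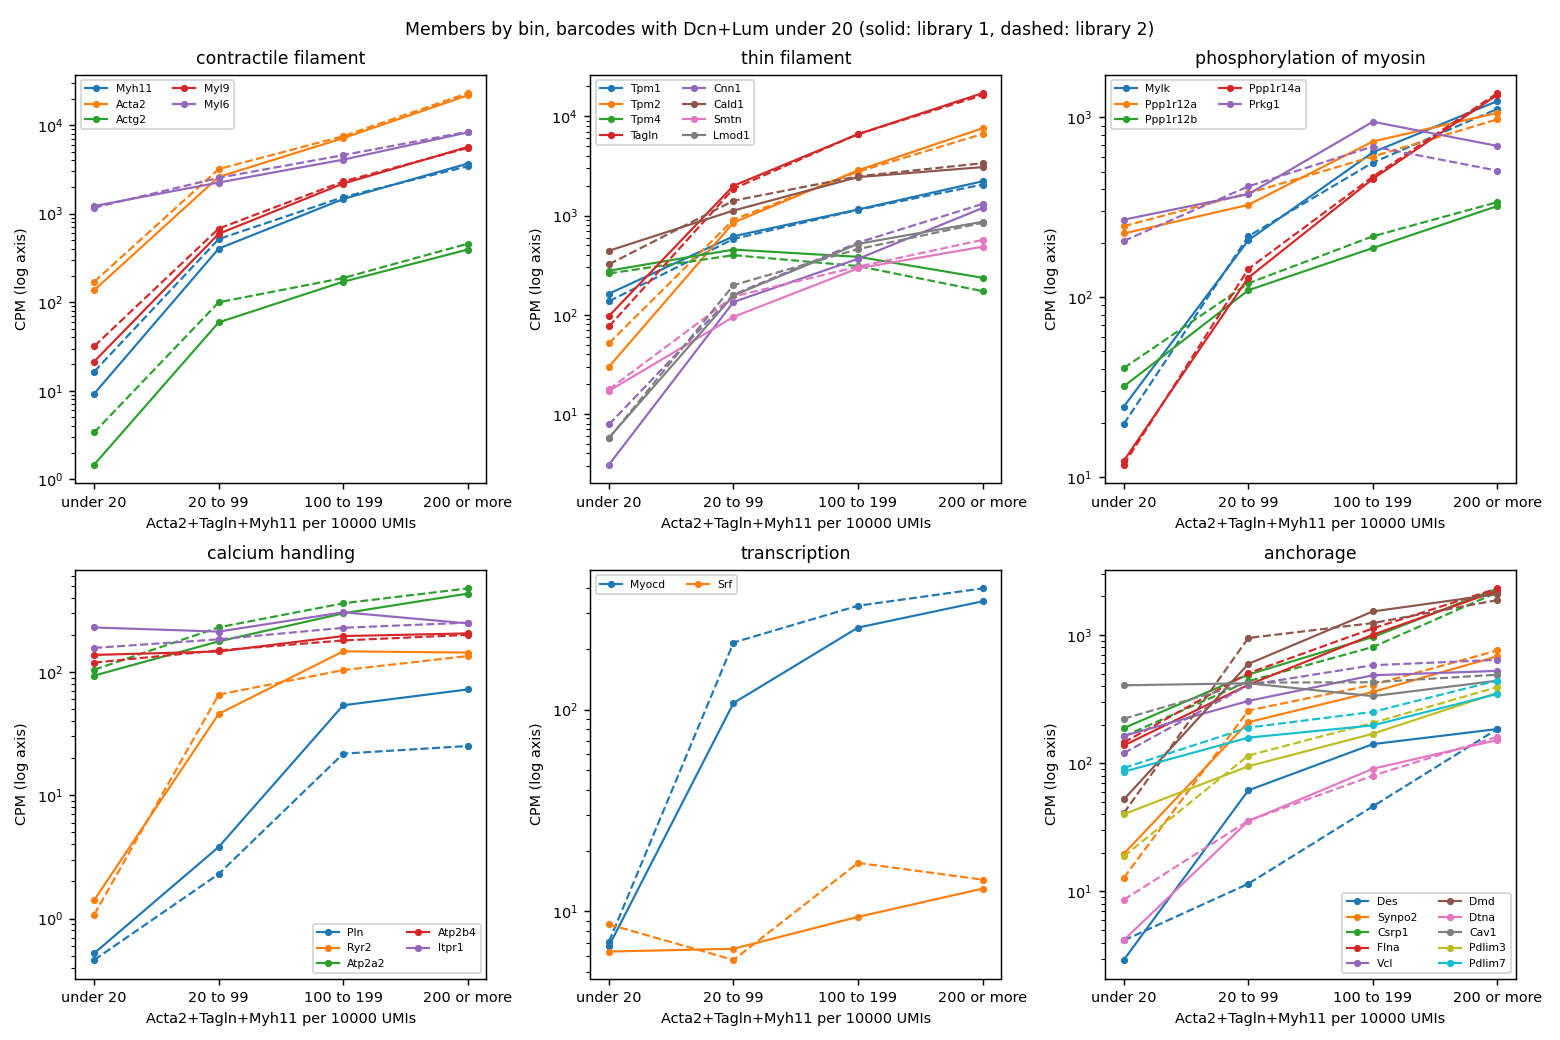
Level of each of the 35 members in CPM (log axis) over the 4 bins of the smooth muscle sum, in barcodes with Dcn+Lum under 20, 1 panel per role, with solid lines for library 1 and dashed lines for library 2. Acta2, Myl9 and Cnn1 climb over all 4 bins, while Tpm4 and Cav1 do not follow them.

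Among the filament genes that do not define the bins, Actg2, the gamma-actin typical of visceral and some vascular muscle (chromosome 6, 83512905 to 83536265), had 393.5 and 458 CPM in the muscle bin, against 1.46 and 3.38 CPM under 20. The ratios were 269 (186 to 405) and 135 (89.4 to 216). Myl9, the regulatory light chain that myosin light chain kinase phosphorylates (chromosome 2, 156775420 to 156781658), had 5678 and 5527 CPM against 21.4 and 31.8 CPM. Myl6, the essential light chain used by muscle and nonmuscle myosin alike (chromosome 10, 128490860 to 128494145), had 8282 and 8429 CPM against 1222 and 1169 CPM. Its ratios were 6.78 (6.68 to 6.88) and 7.21 (7.04 to 7.38), the lowest of this role in both libraries. All 3 were past 2-fold in both libraries. The intervals describe summed UMIs and not the spread between barcodes. Actg2, for example, had a UMI in 53.5% and 65.6% of the barcodes of the muscle bin.

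The thin filament regulators divided by gene. Cnn1, calponin, which binds actin and damps myosin activity (chromosome 9, 22099216 to 22109630), had the highest ratio of all 32 members in library 1. It stood at 1191 and 1308 CPM in the muscle bin, against 3.08 and 7.84 CPM under 20, a ratio of 386 (299 to 508) and 167 (127 to 224). Tpm2, a tropomyosin of the contractile apparatus (chromosome 4, 43514711 to 43523765), had 7570 and 6636 CPM against 29.9 and 51.5 CPM. Lmod1, leiomodin, which nucleates actin filaments in smooth muscle (chromosome 1, 135324807 to 135368065), had 864.7 and 843 CPM against 5.75 and 5.69 CPM. Tpm1, Smtn and Cald1 coded for another tropomyosin, smoothelin and caldesmon, and their ratios lay between 6.97 for Cald1 and 28.4 for Smtn in library 1 and between 10.5 and 32.1 in library 2, for the same 2 genes. Tagln, the actin-binding transgelin and the third defining gene (chromosome 9, 45929619 to 45936058), had 17124 and 16338 CPM in the muscle bin. Tpm4 went the other way. This tropomyosin, found in the cytoskeleton of many cell types (chromosome 8, 72134975 to 72153142), had 235.7 and 173 CPM in the muscle bin, against 278 and 261 CPM under 20, ratios of 0.848 (0.809 to 0.889) and 0.664 (0.624 to 0.707). It was the only member of 31 compared with a ratio below 1, but in library 1 the ratio was 1.2 once barcodes with 2 or more leukocyte or endothelial screening UMIs were left out. That screen left 85 of the 1450 barcodes under 20 in library 1.

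The genes that set the phosphorylation of myosin were all past 2-fold in both libraries. Mylk, myosin light chain kinase (chromosome 16, 34745210 to 35002420), had 1233 and 1116 CPM in the muscle bin, against 24.6 and 19.7 CPM under 20. Ppp1r14a, which codes for CPI-17, an inhibitor of myosin phosphatase (chromosome 7, 29289308 to 29293801), had 1337 and 1366 CPM against 12.3 and 11.7 CPM, ratios of 109 (95.8 to 124) and 117 (93.3 to 148). The kinase and the phosphatase inhibitor thus stood together far above the low bin. The targeting subunits of the phosphatase itself were less apart. Ppp1r12a had 1061 and 976 CPM against 226 and 248 CPM, and Ppp1r12b had 321 and 338 CPM against 31.9 and 40.3 CPM. Prkg1, the cGMP-dependent kinase through which nitric oxide relaxes muscle (chromosome 19, 30564489 to 31765033), had 694 and 506 CPM against 269.8 and 205.5 CPM. Its ratios of 2.57 (2.48 to 2.67) and 2.46 (2.32 to 2.61) were the lowest of this role.

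Of the calcium handling genes, 3 of 5 were past 2-fold in both libraries. Pln, phospholamban (chromosome 10, 53337667 to 53345987), rested on 784 and 356 UMIs in the muscle bin, or 72.1 and 25.1 CPM, and on 10 and 3 UMIs under 20. The ratios of 138 (74.6 to 289) and 54.3 (18.4 to 265) have wide intervals for that reason. Ryr2, a ryanodine receptor (chromosome 13, 11553102 to 12106945), had 143 and 134 CPM against 1.41 and 1.08 CPM, ratios of 102 (69.6 to 155) and 125 (60.4 to 311). Atp2a2, which codes for SERCA2, had 431 and 475 CPM against 93.3 and 104 CPM. The other 2 were past 2-fold in neither library with all barcodes. Atp2b4, a calcium pump of the plasma membrane, had 205 and 199.5 CPM against 137 and 119 CPM. Itpr1, an IP3 receptor (chromosome 6, 108213096 to 108551109), had 247 and 250.7 CPM against 229 and 156 CPM, ratios of 1.08 (1.03 to 1.13) and 1.6 (1.5 to 1.72). Without barcodes of 2 or more leukocyte or endothelial screening UMIs, however, Itpr1 was past 2-fold in both libraries and Atp2b4 in library 2. That screen left 85 and 38 barcodes under 20.

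Of the transcription pair, Myocd followed the muscle bin and Srf could not be compared at this depth. Myocd, myocardin (chromosome 11, 65176561 to 65269989), had 344 and 398 CPM in the muscle bin, against 6.74 and 7.08 CPM under 20. Srf, serum response factor (chromosome 17, 46548329 to 46556175), had 13 and 14.4 CPM against 6.32 and 8.61 CPM, below the 20 CPM that a gene needed in at least 1 of the 2 bins. Its ratios were 2.05 (1.6 to 2.64) and 1.67 (1.24 to 2.28).

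The genes of anchorage, which tie filaments to dense plaques, intermediate filaments and the membrane, covered a wide range. Des, the intermediate filament protein desmin (chromosome 1, 75360329 to 75368579), had 184.6 and 184.8 CPM in the muscle bin, against 2.92 and 4.15 CPM under 20. Dmd, dystrophin (chromosome X, 82948870 to 85206141), had 2080 and 1868 CPM against 52.1 and 40.8 CPM. Synpo2, an actin-bundling protein of dense plaques, had 680.9 and 756.7 CPM against 19.6 and 12.8 CPM. Des, Dmd, Synpo2 and the dystrophin partner Dtna were 18.6-fold or more higher in both libraries. Without barcodes of 2 or more screening UMIs, however, Dtna stood at 1.34 and 0.859 times and Vcl at 1.47 and 1.77 times the low bin, so neither was past 2-fold. That screen left 85 of 1450 and 38 of 573 barcodes under 20. These ratios thus rest on a small remainder of a low bin in which most barcodes held those markers. Flna, Csrp1, Pdlim3, Pdlim7 and Vcl code for filamin A, LIM-domain proteins and vinculin, and their ratios lay between 3.21 for Vcl and 16.1 for Flna in library 1 and between 4.8 for Pdlim7 and 20.9 for Pdlim3 in library 2. Cav1, the caveolin that shapes membrane pits (chromosome 6, 17306335 to 17341452), had 439.6 and 489.6 CPM against 405 and 222 CPM. Its ratio of 1.09 (1.05 to 1.13) in library 1 was within 2-fold, and that of 2.2 (2.08 to 2.33) in library 2 was past it. Without barcodes of 2 or more screening UMIs, Cav1 was past 2-fold in both libraries.

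Counted together, 27 of 31 members compared in library 1 and 28 of 31 in library 2 were 2-fold or more higher in the muscle bin than under 20, and 0 were 2-fold or more lower. Without barcodes of 2 or more screening UMIs the higher counts were again 27 and 28, but with other members. Dtna and Vcl left in both libraries, while Itpr1 joined in both, Cav1 in library 1 and Atp2b4 in library 2. Over all genes compared, 12.6% and 14.2% were that much higher and 22.1% and 24.6% that much lower. The median ratio of members was 4.0 and 4.22 on the log2 scale, against -0.20 and -0.22 for all 7583 and 7755 genes. Of 66 other contraction and calcium genes, 62 and 61 were compared, 37 and 36 were 2-fold or more higher and 10 and 10 that much lower. Kcnmb1, the beta subunit of the large-conductance potassium channel, had 155 and 177 CPM against 0.313 and 1.85 CPM, and Itga8, Cav3 and Mrvi1, a substrate of the kinase Prkg1, were also among the 5 highest of that list in both libraries. Itpr2 and Itpr3, the other IP3 receptors, were among its 5 lowest. Itpr2 had 8.55 and 7.32 CPM against 123 and 89.1 CPM, and Itpr3 had 2.11 and 0.704 CPM against 28.4 and 24.1 CPM.

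**Figure D2:**
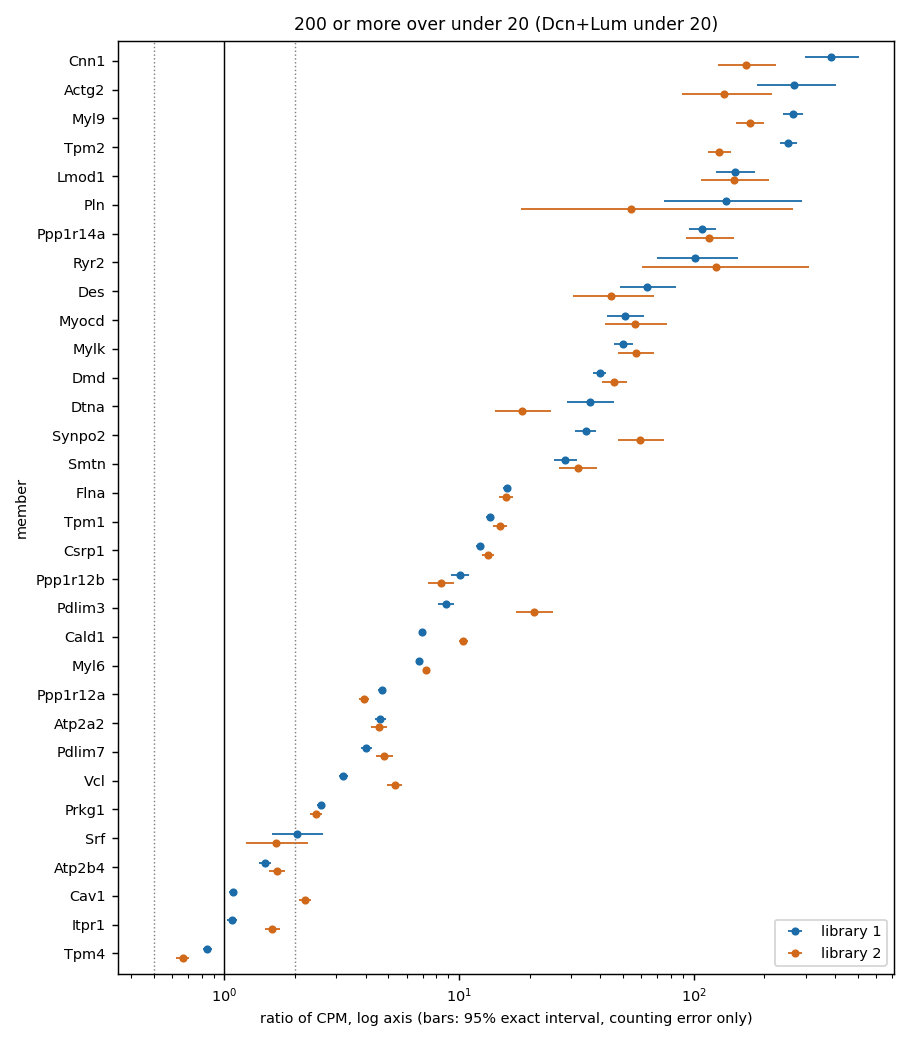
Ratio of CPM in the muscle bin over barcodes under 20 (both with Dcn+Lum under 20) for the 32 members that do not define the bins, on a log axis, with exact 95% intervals for library 1 (blue) and library 2 (orange). Dotted lines mark 2-fold, and the members run from Cnn1 at the top to Tpm4, the one point left of 1 in both libraries.

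Several of the members with ratios close to 1 were also high in endothelial barcodes. Endothelial barcodes were those with at least 5 endothelial marker UMIs per 10000, a smooth muscle sum under 20 and Dcn+Lum under 20, and numbered 731 and 148. Cav1 had 439.6 and 489.6 CPM in the muscle bin against 689.7 and 684.9 CPM in endothelial barcodes. Itpr1 had 247 and 250.7 CPM against 355 and 361 CPM, and Tpm4 235.7 and 173 CPM against 332 and 355 CPM. In these 3 genes the endothelial level was the higher one in both libraries. Prkg1 had 694 and 506 CPM against 431 and 569 CPM, an order that differed between the libraries. In leukocyte barcodes, chosen in the same way and numbering 753 and 405, Cav1, Itpr1 and Prkg1 were lower than in the muscle bin in both libraries. Tpm4 had 217 and 217.5 CPM there, below the muscle bin in library 1 and above it in library 2. Pln had 0.544 CPM in endothelial barcodes of library 1 and was listed at 0 in those of library 2, and Dtna had 0.907 and 1.49 CPM.

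The intermediate bins show the levels of the other members at lower smooth muscle sums. In barcodes at 20 to under 100 the defining genes together stood at 11.8% and 13% of their level in the muscle bin, values that the limits of the bins set. The median member stood at 29.6% and 32.1% of its own level there. Against barcodes at 20 to under 100, 25 and 23 of 31 members were 2-fold or more higher in the muscle bin, where 7.6% and 6.36% of all genes were. In library 2, 1 member, Tpm4, was 2-fold or more lower, where 17% of all genes were, and in library 1 there were 0 against 16.5%. The median ratio was 1.81 and 1.73 on the log2 scale, against -0.23 and -0.26 for all genes.

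Ppp1r14a and Myl9 were among the members farthest apart between these bins in both libraries. Ppp1r14a had 1337 and 1366 CPM in the muscle bin against 128 and 143.5 CPM at 20 to under 100, ratios of 10.4 (9.16 to 11.9) and 9.52 (7.98 to 11.4). Myl9 had 5678 and 5527 CPM against 593 and 679.8 CPM, ratios of 9.58 (9.02 to 10.2) and 8.13 (7.5 to 8.83). Pln had the highest ratio in library 1, 18.9 (9.14 to 47.2), and Des in library 2, 16.1 (8.74 to 33.6), resting on 7 and 10 UMIs at 20 to under 100. Des was far apart between the libraries here, with 61.4 CPM at 20 to under 100 in library 1 and 11.5 CPM in library 2, although both had about 185 CPM in the muscle bin.

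Other members were less far below the muscle bin, or above it, at 20 to under 100. Myocd had 344 and 398 CPM in the muscle bin and 108 and 214.7 CPM at 20 to under 100, ratios of 3.19 (2.77 to 3.7) and 1.85 (1.6 to 2.16). Dmd had 2080 and 1868 CPM against 594 and 946 CPM. Vcl had 524 and 639 CPM against 306 and 406.5 CPM, and Prkg1 694 and 506 CPM against 374 and 413 CPM. Tpm4 had 453.5 and 398.5 CPM at 20 to under 100, 383.5 and 309 CPM at 100 to under 200 and 235.7 and 173 CPM in the muscle bin, lower at each step in both libraries. Its 2-fold difference in library 2 was lost with barcodes down to 1000 UMIs, without those above 20000 UMIs, with equal weight per barcode and after thinning.

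These bins were small and mixed. At 20 to under 100 the defining genes together stood at 5002 and 5573 CPM. That was below the 8862 and 12007 CPM of free RNA, whose part in the member levels was not tested. The 183 and 85 barcodes at 20 to under 100 held 2451 and 1075 CPM of the 5 endothelial markers and 2920 and 3316 CPM of the 6 leukocyte markers, against 73.6 and 85 CPM and 264.9 and 108 CPM in the muscle bin, and the part of those cells in the member levels was not tested. Leaving out every barcode with at least 2 UMIs of the leukocyte or of the endothelial screening markers kept 29 and 26 barcodes of this bin, and the count of members 2-fold or more higher became 13 in library 1 and 23 in library 2. Des, Synpo2, Dmd and Myocd were among the 12 members lost in library 1, and Des then stood at 0.819 times its level at 20 to under 100.

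**Figure D3:**
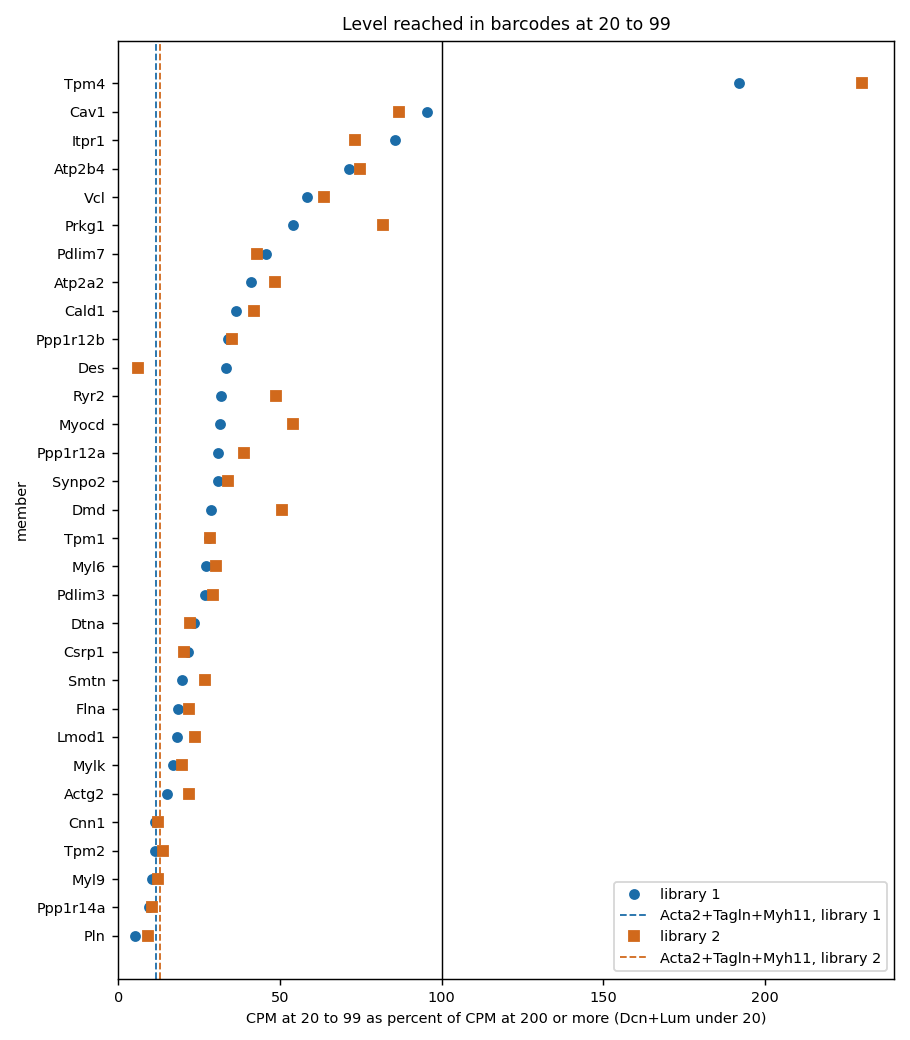
Level at 20 to under 100 as a percentage of the level in the muscle bin, for 31 members, with circles for library 1 and squares for library 2, and dashed lines at 11.8% and 13% for Acta2, Tagln and Myh11 together, which follow from the bin limits. Pln is lowest in library 1 and Des in library 2, and Tpm4 lies beyond 100% in both.

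Within the muscle bin the members also differed in how they went with the defining genes. Barcodes at 400 to under 800 (462 and 668) were set over barcodes at 200 to under 400 (434 and 652). The defining genes summed to 52401 and 51848 CPM in the upper of these, against 30328 and 31210 CPM in the lower. The interval of the ratio lay above 1 in both libraries for 19 of 32 members and below 1 in both for 4, where 7.68% and 23.6% of 6069 genes were. The median member ratio was 0.27 and 0.20 on the log2 scale, against -0.12 and -0.10 for all genes.

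Des, Actg2 and Csrp1 had the highest ratios. Des had 246 and 239.9 CPM at 400 to under 800 against 118 and 120.3 CPM at 200 to under 400, ratios of 2.09 (1.9 to 2.31) and 1.99 (1.83 to 2.17). Actg2 had 494 and 590.5 CPM against 252 and 289.7 CPM, ratios of 1.96 (1.83 to 2.1) and 2.04 (1.93 to 2.15). Csrp1 had 2817 and 2627 CPM against 1669 and 1539 CPM. In the few barcodes at 800 or more, 11 and 10, Actg2 had 1476 and 1064 CPM and Csrp1 4328 and 4166 CPM, above both lower bins. Des had 128 (76.1 to 203) and 107.3 (55.4 to 187) CPM there, on 18 and 12 UMIs, below its level at 400 to under 800.

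The 4 members with the opposite course were Prkg1, Ryr2, Tpm4 and Myocd, a course that 23.6% of all genes compared also took. Prkg1 had 566 and 416 CPM at 400 to under 800 against 849.8 and 620.2 CPM at 200 to under 400, ratios of 0.666 (0.636 to 0.697) and 0.671 (0.64 to 0.703). Myocd had 327 and 360.1 CPM against 366 and 448 CPM, ratios of 0.894 (0.838 to 0.954) and 0.804 (0.762 to 0.847). Ryr2 had 129 and 122 CPM against 162 and 151 CPM, and Tpm4 219 and 154 CPM against 254 and 194 CPM. The same sign in both libraries was a matter of these intervals, which count molecules and not animals. Cald1 was nearest to 1, at 1.01 (0.992 to 1.04) and 1 (0.986 to 1.02).

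**Figure D4:**
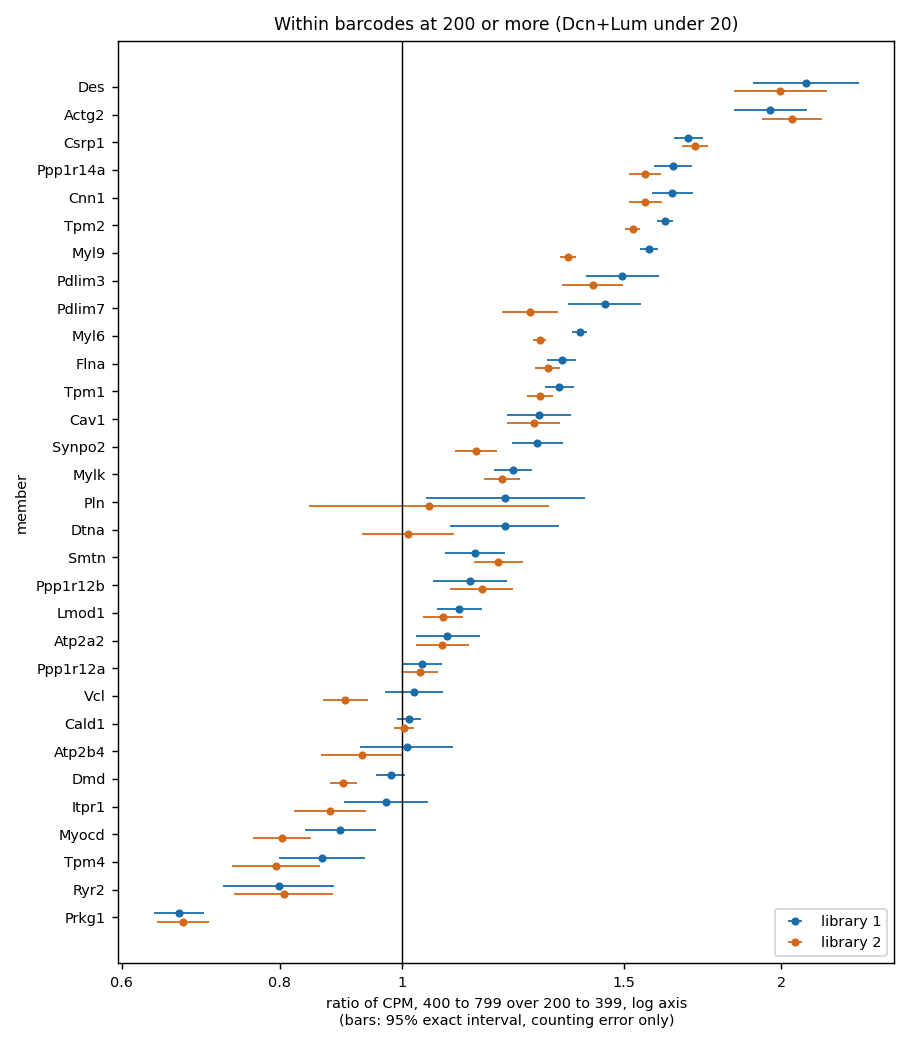
Ratio of CPM at 400 to under 800 over 200 to under 400 within the muscle bin, on a log axis with exact 95% intervals, for 31 members in library 1 (blue) and library 2 (orange). Des, Actg2 and Csrp1 stand at the top, and Prkg1, Ryr2, Tpm4 and Myocd lie left of 1 in both libraries.

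The share of muscle barcodes with a UMI was taken for each member. Such a share follows the level of the gene as well as its spread between barcodes. After each barcode was thinned to 3000 UMIs, the share with at least 1 UMI was 91.6% (89.6 to 93.3) and 94.6% (93.2 to 95.7) for Cnn1, against 1.86% and 2.96% in leukocyte barcodes, which should lack it. For Myocd the shares were 52.9% (49.6 to 56.2) and 58.9% (56.2 to 61.5), against 0.797% and 0.988%. Des was found in 20.5% (17.9 to 23.3) and 18.7% (16.7 to 20.9), against 1.2% and 1.48%, and Pln in 12.2% (10.2 to 14.5) and 4.66% (3.59 to 5.94), against 0.266% (0.0322 to 0.956) and 0% (0 to 0.907). Without thinning, the shares in the muscle bin were 98% and 99.3% for Cnn1, 82.4% and 85% for Myocd, 28.6% and 26.5% for Des and 23.6% and 10.2% for Pln, at median depths of 11417 and 10015 UMIs, against 7712 and 7456 in leukocyte barcodes. Srf, at 3.64% and 4.44% against 1.73% and 2.47%, was close to the leukocyte share.

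Unevenness between muscle barcodes was measured on the thinned counts as the squared coefficient of variation beyond counting noise, which is 0 for counting noise alone. It was 7.33 and 6.79 for Des, 8.24 and 26.7 for Pln and 2.12 and 1.27 for Actg2. Apart from Srf, whose counts were too few for this measure, the other members that do not define the bins lay between 0.0844 for Myl6 and 1.01 for Ryr2 in library 1 and between 0.055 for Pdlim3 and 0.94 for Prkg1 in library 2. Des was at 0 UMIs in the median barcode of both libraries and at 5.86 and 6.41 per 10000 at the 90th percentile. Smtn, which had a higher level than Des in the muscle bin, had a median of 4.58 and 5.38 per 10000.

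Barcodes that held matrix genes besides the smooth muscle genes had lower levels of most members. At 200 or more, the 266 and 456 barcodes with Dcn+Lum of 20 or more had 2577 and 3187 CPM of Dcn and 4143 and 2697 CPM of Lum, against 116 and 94.4 CPM of Dcn and 120.1 and 94.2 CPM of Lum in the muscle bin. They were shallower, with medians of 5790.5 and 3970.5 UMIs against 11417 and 10015. Of 31 members compared, 8 in library 1 and 0 in library 2 were 2-fold or more lower, where 4.87% and 0.615% of all genes were. The median member ratio was -0.83 and -0.61 on the log2 scale, against -0.07 and 0.02 for all genes. The 6 fibroblast markers summed to 10232 and 9339 CPM with Dcn+Lum of 20 or more, against 745 and 686 CPM in the muscle bin. Dcn and Lum are among those 6 and set the division, so part of that difference was fixed in advance. The 8 markers of modulated smooth muscle summed to 6940 and 7424 CPM, against 1597 and 1981 CPM. Those 8 were not particular to muscle barcodes. In barcodes under 20 they summed to 16243 and 19708 CPM with Dcn+Lum of 20 or more, and to 7628 and 7650 CPM with Dcn+Lum under 20. The part of either list in the member levels was not tested. The defining genes were lower as well, at 31183 and 28842 CPM against 42544 and 42788 CPM.

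Pln, Des and the dystrophin pair were farthest apart in library 1. Pln had 10.5 and 14.6 CPM with Dcn+Lum of 20 or more against 72.1 and 25.1 CPM in the muscle bin, ratios of 0.146 (0.101 to 0.205) and 0.583 (0.419 to 0.794). Des had 56.7 and 139.8 CPM against 184.6 and 184.8 CPM, ratios of 0.307 (0.263 to 0.357) and 0.757 (0.682 to 0.837). Dmd had 770.6 and 1186 CPM against 2080 and 1868 CPM, and Dtna 54.9 and 93.8 CPM against 151 and 160.5 CPM. Synpo2, Ppp1r12a, Mylk and Ryr2 were the remaining 4 past 2-fold in library 1, at ratios of 0.43, 0.438, 0.475 and 0.481, against 0.578, 0.633, 0.63 and 0.819 in library 2. All 8 were below 1 in library 2 too, by less than 2-fold. In library 1, Ryr2 was no longer past 2-fold with barcodes down to 1000 UMIs, without those above 20000 UMIs or after thinning, Ppp1r12a after thinning, and Mylk without barcodes that held 5 or more UMIs per 10000 of Notch3, a receptor gene. Whether the libraries differ in this was not tested.

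Tpm4 was the one member 2-fold or more higher in these barcodes, where 5.57% and 5.84% of all genes were. It had 644 and 364 CPM with Dcn+Lum of 20 or more against 235.7 and 173 CPM in the muscle bin, ratios of 2.73 (2.58 to 2.9) and 2.1 (1.96 to 2.26). The call held under every alternative in library 1, and in library 2 it was lost with barcodes down to 1000 UMIs, where the ratio was 1.57, without those above 20000 UMIs, with equal weight per barcode and after thinning to 3000 UMIs. Since Tpm4 was also higher at lower smooth muscle sums, both groups were compared within 200 to under 400. There 8 members in library 1 and 0 in library 2 were 2-fold or more lower, with Prkg1 in place of Des, and Tpm4 was no longer past 2-fold in library 2. Actg2 was above 1 in library 1, with 546 CPM against 393.5 CPM and a ratio of 1.39 (1.31 to 1.47), and below 1 in library 2, with 369 CPM against 458 CPM and a ratio of 0.804 (0.755 to 0.856). Prkg1 had 391 and 490.1 CPM against 694 and 506 CPM, ratios of 0.563 (0.53 to 0.597) and 0.969 (0.916 to 1.02), so its interval held 1 in library 2.

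**Figure D5:**
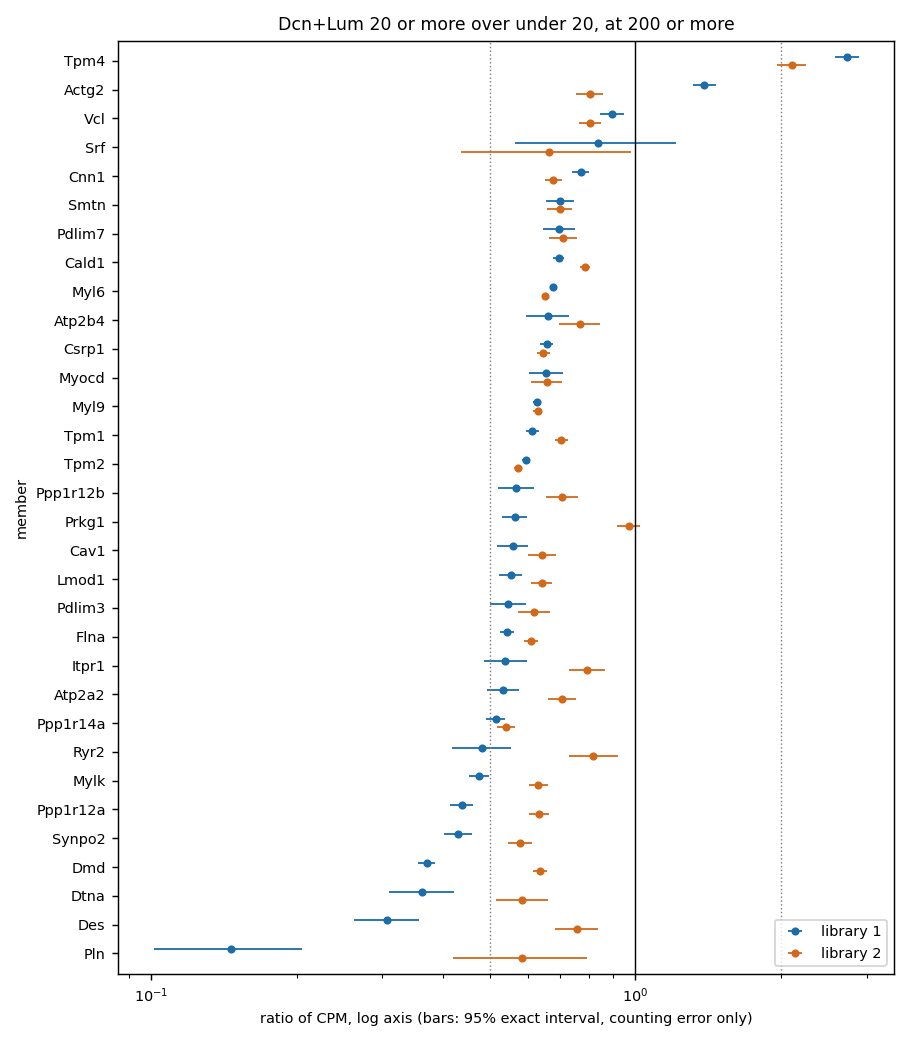
Ratio of CPM with Dcn+Lum of 20 or more over Dcn+Lum under 20, in barcodes at 200 or more, on a log axis with exact 95% intervals for library 1 (blue) and library 2 (orange). Dotted lines mark 2-fold, Tpm4 is the only member right of 2 and Pln is the lowest in library 1.

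The bins could also be compared among barcodes that all held Dcn or Lum. With Dcn+Lum of 20 or more, 25 and 26 of 30 members were 2-fold or more higher at 200 or more than under 20, where 5.58% and 5.8% of all genes were, and 0 were that much lower, where 11.3% and 6.8% of all genes were. Cnn1 had 917.6 and 885.7 CPM against 6.11 and 9.04 CPM, and Actg2 546 and 369 CPM against 4.29 and 5.64 CPM. Myocd had 225 and 262 CPM against 21.1 and 27.2 CPM. Tpm4 had 644 and 364 CPM against 262 and 262 CPM, so among these barcodes it was higher where the smooth muscle sum was high, unlike among barcodes with Dcn+Lum under 20.

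The libraries were alike in the muscle bin for nearly all members, as they were for nearly all genes compared. The median ratio of library 1 over library 2 was -0.03 on the log2 scale for members, against -0.02 for all genes. Of 31 members compared, 1 was 1.5-fold or more higher in library 1 and 0 were lower, where 3.74% and 1.18% of all genes were, shares close to those of the members. The one was Pln, at 72.1 CPM in library 1 and 25.1 CPM in library 2, a ratio of 2.88 (2.53 to 3.27). Myh11, Acta2 and Tagln had ratios of 1.07, 0.944 and 1.05. Next to Pln in size were Prkg1 at 1.37 (1.33 to 1.42) and Tpm4 at 1.36 (1.29 to 1.44), and at the other end Pdlim7 at 0.786 (0.755 to 0.819) and Vcl at 0.821 (0.794 to 0.849).

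Pln went with Notch3, a receptor gene of mural cells of small vessels, which had 129 CPM in the muscle bin of library 1 and 46.1 CPM in that of library 2. Barcodes with Notch3 at 5 or more UMIs per 10000 numbered 90 of 907 and 25 of 1330. Pln had 327 and 296.2 CPM in them, against 47.8 and 20.5 CPM in the rest of the muscle bin. Prkg1 had 1197 and 1245 CPM against 646.5 and 494 CPM, Mylk 2111 and 1910 CPM against 1150 and 1103 CPM, and Des 427 and 562 CPM against 161.5 and 178.5 CPM. Cnn1 had 846 and 579.5 CPM against 1223 and 1320 CPM. The 7 markers of such mural cells summed to 1211 and 1960 CPM in the muscle bin, higher in library 2, and each of the 7 was above 0 in both. Most of that sum was 1 marker, Rgs5, at 742.6 and 1576 CPM. The order of the sums thus rests on Rgs5, while Notch3 was higher in library 1. This division by Notch3 was chosen after the Pln values had been seen. Without the Notch3 barcodes the Pln ratio of library 1 over library 2 was 2.33.

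The libraries were also compared in barcodes at 200 or more with Dcn+Lum of 20 or more. There 1 of 30 members, Tpm4, was 1.5-fold or more higher in library 1, with 644 CPM against 364 CPM, and 4 were lower, where 3.3% and 11.2% of all genes were, shares close to those of the members. The 4 were Des, with 56.7 CPM in library 1 against 139.8 CPM in library 2, Dtna with 54.9 against 93.8 CPM, Ryr2 with 69 against 110 CPM, and Dmd with 770.6 against 1186 CPM. A library could not be told apart from whatever else differed between the samples, the depth of its barcodes among them.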

How the data were processed

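The deposited data came from 2 samples of 1 group each, made with the Chromium 3′ v3 kit as the labels' protocols state. The authors deposited 1 unfiltered matrix for both libraries, whose values are raw UMI counts. Its file headers name Cell Ranger 6.0.1. Tools listed in the notes of the submitters are bcl2fastq, Cell Ranger and Seurat, with mm10 as the build, and their annotation is not stated there. Gene identifiers were matched to GENCODE vM21, with 32235 of 32285 found. Counts came from near the 3′ end, and ratios were taken within a gene. Marker sums pooled genes, and in a few places the levels of different genes, such as Smtn and Des, were set side by side.

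The members and the gene lists were chosen with earlier results of these data known. Barcodes were filtered and binned with Python 3.11.15, and UMIs were summed per bin. A gene was compared at 20 CPM or more in at least 1 of the 2 groups. Folds of 2 between bins and 1.5 between libraries were used, with exact Poisson, conditional and Clopper-Pearson intervals at 95%, and no p-value. TMM scaling used edgeR 4.0.16. No doublet caller was run, and a marker screen served as an alternative. Members with full values were the 5 highest and 5 lowest ratios of each comparison in either library, with others named for their role. The arithmetic was tested on simulated data.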

Additional observations from a re-analysis of the deposited data

Results flagged for a closer look

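Actg2, the gamma-actin gene, went in opposite directions in the 2 libraries when barcodes at 200 or more with Dcn+Lum of 20 or more were set over those with Dcn+Lum under 20. The ratio was 1.387 in library 1, from 545.8 CPM against 393.5 CPM, and 0.8044 in library 2, from 368.7 CPM against 458.3 CPM. Both intervals excluded 1, but the difference between the libraries was not tested. The ratio ranged over the alternatives from 1.143 to 1.82 in library 1 and from 0.7068 to 1.083 in library 2, and the value of 1.083 came with both groups within 200 to under 400. After thinning to 3000 UMIs, Actg2 had a UMI in 60.5% (54.4 to 66.4) of the barcodes with Dcn+Lum of 20 or more and in 41.3% (38.1 to 44.6) of those under 20 in library 1, and in 48.5% (43.8 to 53.2) and 51.4% (48.6 to 54.1) in library 2.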

How the results depend on the processing

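The counts of members higher in the muscle bin than in either lower bin, of members lower with Dcn+Lum of 20 or more, and of members apart between libraries stayed within 1.5 times their value under each alternative, with 1 exception: without barcodes of 2 or more screening UMIs, the members 2-fold or more higher in the muscle bin than at 20 to under 100 numbered 13 in library 1, against 25 with all barcodes. That screen left 29 of 183 barcodes in the lower bin, and 38 of the 573 barcodes under 20 in library 2. It also turned the direction of 3 ratios that had been past 2-fold, to 0.819 for Des and 0.9895 for Synpo2 in that comparison in library 1, and to 0.8594 for Dtna in the muscle bin over barcodes under 20 in library 2. The cause was not tested. The alternatives were minimums of 1000 and 5000 UMIs, a mitochondrial limit of 10%, no barcodes above 20000 UMIs, a denominator without the defining genes, equal weight per barcode, thinning, other minimum levels, TMM scaling, and, added after seeing the data, no Notch3 barcodes and both groups within 200 to under 400. Of 2555 member ratios so recomputed, 1989 stayed within the interval of the first value, 563 left it, and the 3 above were past the fold and turned. Comparisons among barcodes with Dcn+Lum of 20 or more, and those within the muscle bin, were not recomputed. No paired analysis was possible because the libraries are not tied to samples and each group has 1 sample. With 1 library of each kind, animals cannot be compared. Srf lay below the minimum level, and Pln ratios against low barcodes rest on 10 and 3 UMIs.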
